A study of Mus musculus with 9 samples.

Results

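Collagen genes were taken as every symbol of the deposited table made of Col, a number, a and a second number, which gave 44 of the 24571 symbols used. They were grouped as 11 fibrillar, 8 basement membrane and 25 other collagen genes, and 33 of the 44 reached the level the test required, an average of 1 TPM or more across 9 libraries. TPM is a transcript level scaled for gene length and library total. The study asked how a missense change of the chromatin architecture factor CTCF, R567W, alters the developing mouse heart. Whole hearts of C57BL/6N embryos at the late embryonic stage E18.5 were sequenced after poly-A capture. Wild-type hearts carried no edited allele, heterozygous hearts carried 1 Ctcf allele with the R567W change made by CRISPR/Cas9, and homozygous hearts carried the change on both alleles, with 3 libraries per genotype. The change is present in every cell of the embryo and not only in the heart.

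Collagens are extracellular matrix proteins built from 3 chains wound into a triple helix. Fibrillar collagens, of which types I and III are the bulk in heart, assemble into the tensile fibres that fibroblasts lay down around muscle cells. Type IV collagens form the sheet-like network of basement membranes around cardiomyocytes and vessels, and the remaining families bind to fibrils, form beaded filaments or span the cell membrane.

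All 44 genes were found in GENCODE M21 (mm10) as protein-coding genes on 15 chromosomes, and several lie as neighbours with no protein-coding gene between them. Col4a1 (chr8:11198423-11312826, minus strand) and Col4a2 (chr8:11312805-11449287, plus strand), the chains of the common type IV network, start head to head and overlap by 22 bases. Col4a6 (chrX:141165403-141474076, minus strand) and Col4a5 (chrX:141475385-141689234, plus strand) are also head to head, 1308 bases apart. Col6a2 (chr10:76595762-76623630) and Col6a1 (chr10:76708792-76726168) lie on the minus strand 85161 bases apart, and Col3a1 (chr1:45311538-45349706, plus strand) and Col5a2 (chr1:45374321-45503282, minus strand) end 24614 bases from each other. The use of strand in the counting is not stated, so reads from the short Col4a1 and Col4a2 overlap cannot be assigned from the sources used here.

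The libraries differed in other-organ markers, in Xist, in Ctcf and in the level of the median gene, and the causes were not tested. Markers of airway and lung (12 genes) summed to 3628 TPM in wild-type replicate 1, to 1635 TPM in replicate 1 of the heterozygous group and to a range of 2.55 to 78.2 TPM in the others, liver markers (12 genes) to 4163 TPM in heterozygous replicate 1 against 30.9 to 169.9 TPM, and thymus markers (12 genes) to 570.8 TPM in homozygous replicate 3 against 0.53 to 2.72 TPM. Cardiomyocyte markers (8 genes) were high in every library, from 26552 to 35686 TPM, with the lowest sum in homozygous replicate 3. Xist was at 87.8 TPM or more in wild-type replicate 1, all heterozygous libraries and homozygous replicate 1, and at 0.05 TPM or less in the other 4. Ctcf was at 27.0 to 34.3 TPM in wild-type, 33.2 to 38.7 TPM in the heterozygous replicates and 38.9 to 50.2 TPM in the homozygous replicates, which does not test the labels because a missense allele is still transcribed. The median gene lay 0.23 higher in homozygous than in wild-type hearts on the log2(TPM + 1) scale, 0.08 higher than in heterozygous hearts, and 0.15 higher in heterozygous than in wild-type hearts, and each collagen change is to be read beside these shifts.

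Collagen transcripts made up 0.113% to 0.239% of all TPM, and the total differed more within the mutant groups than between genotypes. The 44 genes summed to 1571, 1686 and 1988 TPM in wild-type replicates 1 to 3, to 2075, 1489 and 2306 TPM in the heterozygous replicates, and to 2291, 2390 and 1128 TPM in the homozygous replicates. Homozygous replicate 3 had the lowest sum of all 9 libraries and the other 2 homozygous libraries were among the 3 highest, so the groups overlapped (1749 ± 215, 1957 ± 421 and 1937 ± 702 TPM, SD, n = 3). The 5 highest genes carried 68.7% to 71.6% of the sum in every library. These were Col3a1, Col1a1 and Col1a2, which give the chains of types III and I, and Col4a1 and Col4a2.

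**Figure D1:**
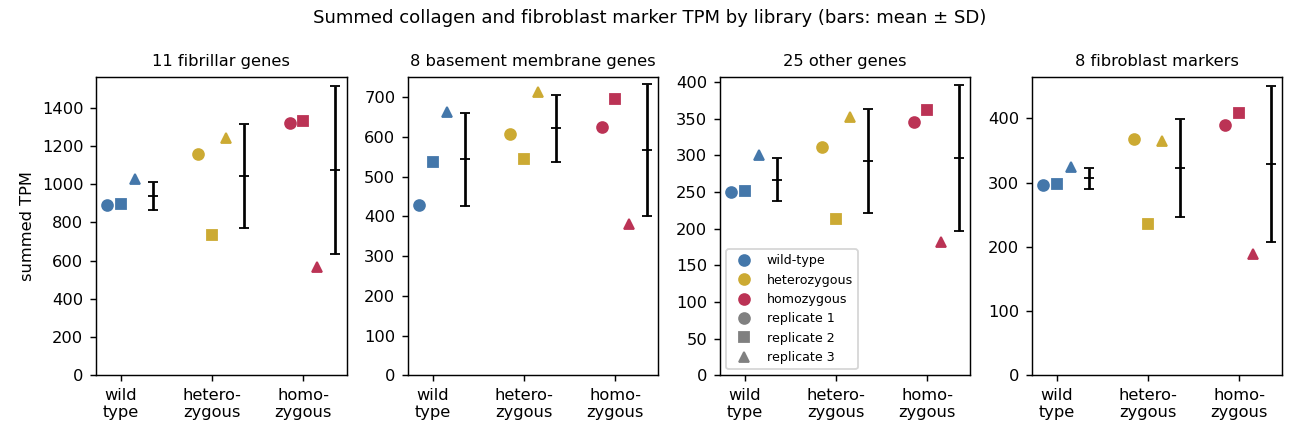
Summed TPM (linear axis from 0) of the 11 fibrillar, 8 basement membrane and 25 other collagen genes and of 8 fibroblast marker genes, with 1 point per library, coloured by genotype and shaped by replicate number, and black bars for the mean ± SD (n = 3). Homozygous replicate 3 is lowest in all 4 panels, at 565 TPM for the fibrillar genes against 1320 and 1332 TPM in the other homozygous libraries.

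The low library was low across the family. Homozygous replicate 3 held the lowest of the 9 values for 23 of the 33 tested collagen genes (69.7%), against 16.3% of all tested genes, and the lowest value of its group for 30 of 33 (90.9%), against 58.7% of all tested genes. Heterozygous replicate 2 held the lowest value of its group for 32 of 33, against 53.7% of all tested genes. Fibroblast markers (8 genes) followed the same libraries, at 297, 298 and 325 TPM in the wild-type replicates, 368, 235 and 365 TPM in the heterozygous and 389.9, 409 and 189 TPM in the homozygous replicates. Endothelial markers (8 genes) of homozygous replicate 3 summed to 469 TPM, within the span of 382 to 647 TPM of the remaining libraries. That sum was carried by Egfl7, at its highest of 9 libraries (185 TPM), while Kdr, Emcn and Tie1 were at their lowest and the other 4 at their second lowest. In bulk tissue, fewer cells of a type and less RNA per cell cannot be told apart, and the part of fibroblast content in the collagen values was not tested.

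None of the 33 tested collagen genes was called in any comparison by limma at an adjusted p under 0.05. In homozygous against wild-type hearts 0 were called where 0.336% of all tested genes were, and 3 had an unadjusted p under 0.05 where 25.0% of all tested genes had. In homozygous against heterozygous hearts 0 were called (0.0439% of all tested genes) and 1 had an unadjusted p under 0.05 (7.15%). In heterozygous against wild-type hearts 0 were called (0.0146%) and 0 had an unadjusted p under 0.05 (6.87%). With libraries weighted by their fit (array weights), 9 collagen genes were called higher in homozygous than in wild-type hearts, Col13a1, Col16a1, Col18a1, Col23a1, Col25a1, Col26a1, Col4a5, Col4a6 and Col5a2, in a fit that called 37.0% of all tested genes. The 95% interval of a collagen change, without adjustment, reached 0.57 to either side of the estimate in the median gene. Smaller changes than that could mostly not be told from 0 with 3 libraries per group. A call at the adjusted threshold needed more than this. Col25a1, at 0.59 against wild type, had a limma adjusted p of 0.174.

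As a group the collagen genes lay close to the median of all genes. Their median log2 change was 0.19 in homozygous against wild-type hearts, beside 0.23 for all tested genes, and 12 of 33 lay above the latter. In homozygous against heterozygous hearts it was 0.01 beside 0.08, with 13 of 33 above, and in heterozygous against wild-type hearts 0.11 beside 0.15, with 15 of 33 above. The fibrillar genes had a median of 0.09, the basement membrane genes of 0.13 and the other collagen genes of 0.28 in homozygous against wild-type hearts. Of the fibrillar genes 1 of 11, Col5a2, 2 of the 6 tested basement membrane genes and 9 of the 16 tested others lay above the all-gene median.

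**Figure D2:**
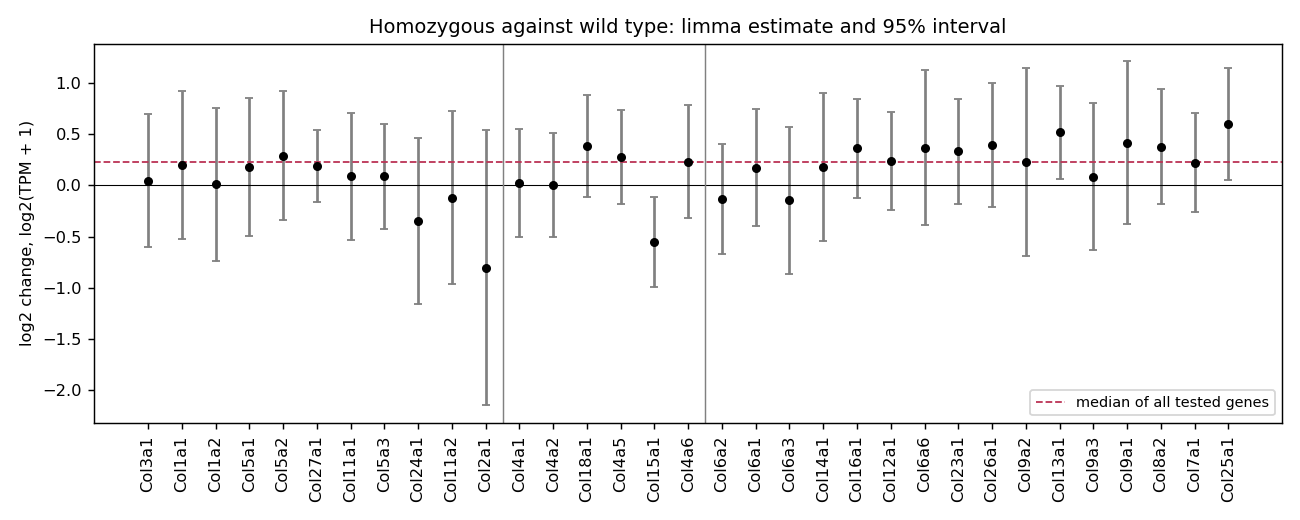
Limma estimate (points) and 95% interval (bars) of the log2 change on the log2(TPM + 1) scale, homozygous against wild type, for the 33 tested collagen genes, with fibrillar, basement membrane and other genes from left to right, each ordered by mean TPM, and the dashed line at the all-gene median of 0.23. Only the intervals of Col15a1 (below 0), Col13a1 and Col25a1 (above 0) leave out 0, before any adjustment for the number of genes.

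The group medians depended on single libraries. Without homozygous replicate 3 the median collagen change against wild type was 0.46 (all genes 0.28). There 13 of 33 had an unadjusted p under 0.05 and 23 of 33 lay above the all-gene median. The collagen median was 0.04 without homozygous replicate 1 (all genes 0.21) and 0.01 without replicate 2 (all genes 0.19). With only the 6 libraries low in lung, liver and thymus markers it was 0.44 (all genes 0.22). Against heterozygous hearts it was 0.34 without homozygous replicate 3 (all genes 0.13) and -0.16 without heterozygous replicate 2 (all genes 0.04). With the same 6 libraries it was 0.46 against heterozygous hearts (all genes 0.13), with 26 of 33 above the all-gene median. Against wild type the median stayed above 0 whichever single library was left out, and against heterozygous hearts it changed sign.

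**Figure D3:**
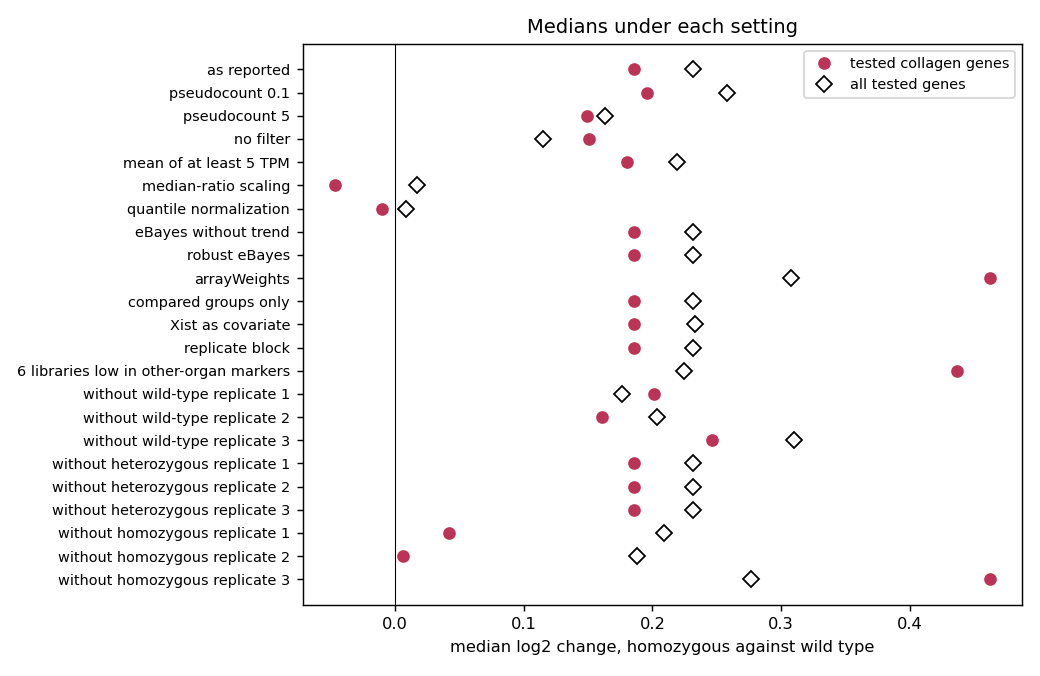
Median log2 change, homozygous against wild type, of the tested collagen genes (filled circles) and of all tested genes (open diamonds) under each setting listed on the vertical axis. The collagen median runs from -0.05 with median-ratio scaling to 0.46 without homozygous replicate 3.

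Among the fibrillar genes, Col3a1, the single chain of type III collagen, was highest. It measured 352, 357 and 411 TPM in the wild-type replicates, 419, 269.9 and 457 TPM in the heterozygous replicates and 494, 507 and 225 TPM in the homozygous replicates. Col1a1, the alpha 1 chain of type I, was at 230.5, 229.5 and 264 TPM, at 329, 209 and 346 TPM and at 386, 367 and 148 TPM. Col1a2, the alpha 2 chain, was at 204, 207 and 225 TPM, at 269, 157 and 284 TPM and at 286, 294 and 114 TPM. All 3 genes were high in homozygous replicates 1 and 2 and lowest of all in replicate 3, and the genotypes overlapped. Their log2 changes against wild type were 0.04 ± 0.29, 0.20 ± 0.32 and 0.01 ± 0.33 (SE), with limma adjusted p-values of 0.937, 0.709 and 0.991. Col5a2, which joins type I fibrils, was at 33.4, 37.1 and 42.6 TPM in the wild-type replicates, 50.5, 33.6 and 53.2 TPM in the heterozygous replicates and 60.7, 58.5 and 27.3 TPM in the homozygous replicates, with a change of 0.29 ± 0.28 and overlapping groups, and of 0.65 without homozygous replicate 3.

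Low-level fibrillar genes gave the lowest fitted changes of the class. Col2a1, the type II chain of cartilage, was at 7.43, 0.83 and 0.61 TPM in the wild-type replicates, 0.99, 0.07 and 0.20 TPM in the heterozygous replicates and 0.54, 1.74 and 0.10 TPM in the homozygous replicates. Wild-type replicate 1 alone was high, and the groups overlapped. Its log2 change was -0.81 ± 0.60 (SE) in homozygous and -1.09 ± 0.60 in heterozygous against wild-type hearts, and -0.04 in homozygous hearts without wild-type replicate 1. Col2a1 passed the filter only through the wild-type group, whose mean was 2.96 TPM against 0.42 and 0.79 TPM in the heterozygous and homozygous groups, and there only through replicate 1. That library is also the one with 3628 TPM of airway and lung markers, and it held the highest Col11a2 (4.75 TPM) and Col17a1 (2.84 TPM) values, the latter a transmembrane collagen of epithelia. Its 12 cartilage markers summed to 23.6 TPM against 15.9 to 27.9 TPM elsewhere, but 5 of them were highest of all libraries there. These were Ucma (2.39 against at most 0.40 TPM), 3110079O15Rik (1.5 TPM, listed at 0 in the others), Lect1 (1.27 against at most 1.0 TPM), Matn3 (0.40 against at most 0.05 TPM) and Matn1 (0.04 TPM, listed at 0 in the others). Of the other listed cartilage markers, Comp was at its lowest of 9 libraries there (1.63 TPM). Acan (2.89 TPM), Hapln1 (1.31 TPM), Epyc (0.21 TPM), Scrg1 (0.47 TPM), Cytl1 (8.9 TPM) and Sox9 (2.59 TPM) lay within the range of the remaining libraries. The part of other tissue in these values was not tested. Col24a1 was at 3.24, 2.28 and 2.36 TPM in the wild-type replicates, 3.57, 1.05 and 2.03 TPM in the heterozygous replicates and 2.36, 2.99 and 0.69 TPM in the homozygous replicates, overlapping in all groups.

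**Figure D4:**
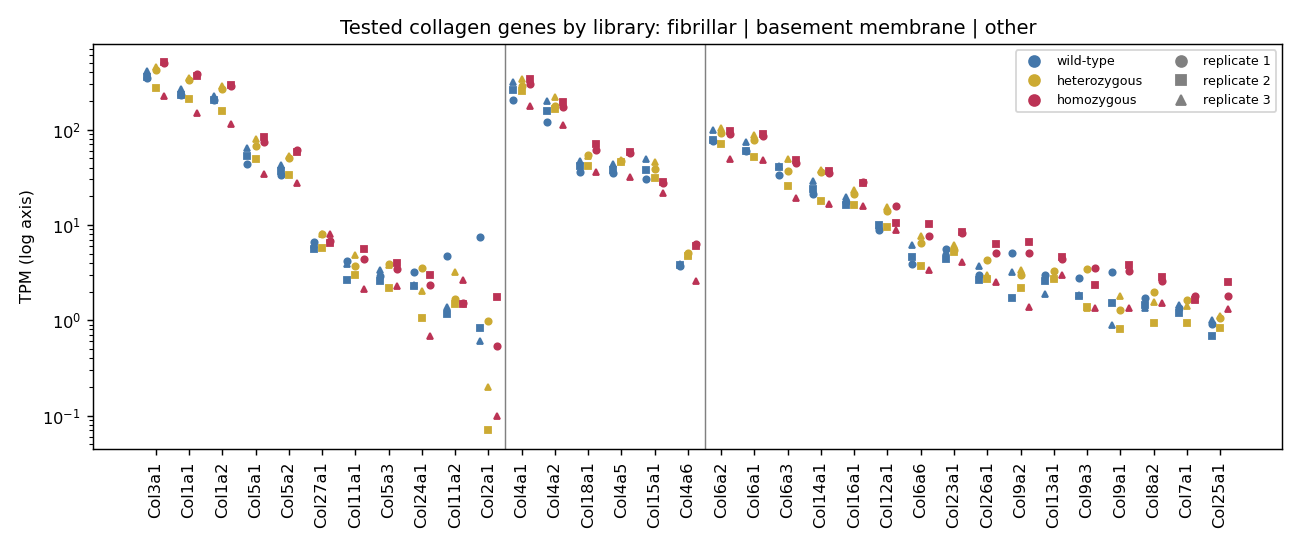
TPM on a log axis of the 33 tested collagen genes in each library, with fibrillar, basement membrane and other genes from left to right, colour for genotype and shape for replicate. Levels run from 507 TPM for Col3a1 in homozygous replicate 2 to 0.07 TPM for Col2a1 in heterozygous replicate 2, and wild-type replicate 1 stands apart for Col2a1 at 7.43 TPM.

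Among basement membrane genes, Col15a1 gave the lowest change and Col18a1 the highest. Both encode multiplexins, collagens of basement membrane zones with interrupted helices. Col15a1 measured 30.1, 37.9 and 48.8 TPM in the wild-type replicates, 38.2, 31.1 and 45.3 TPM in the heterozygous replicates and 27.8, 28.4 and 21.4 TPM in the homozygous replicates. Every homozygous library lay below every wild-type and every heterozygous library, and wild type and heterozygous overlapped. Its log2 change was -0.55 ± 0.20 (SE) against wild type and -0.54 ± 0.20 against heterozygous hearts, with limma adjusted p-values of 0.140 and 0.659. The change was below the all-gene median in every alternative run, and it passed the threshold with median-ratio scaling only, at -0.79 with a limma adjusted p of 0.0253. That scaling called 1.67% of all tested genes, against 0.336% in the fit reported above.

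Col18a1 was at 35.9, 41.6 and 47.1 TPM in the wild-type replicates, 53.5, 41.2 and 52.3 TPM in the heterozygous replicates and 61.6, 71.0 and 36.3 TPM in the homozygous replicates. Homozygous replicates 1 and 2 were the highest and replicate 3 among the lowest, so the groups overlapped. Its log2 change was 0.38 ± 0.22 (SE) against wild type, with a limma adjusted p of 0.292, and 0.67 with a limma adjusted p of 0.0639 without homozygous replicate 3. The X-linked type IV chains Col4a5 and Col4a6 were each higher in every heterozygous library than in every wild-type library (Col4a5 45.5 to 47.5 against 34.9 to 44.0 TPM, Col4a6 4.69 to 5.03 against 3.75 to 3.92 TPM), with log2 changes of 0.26 and 0.28 and limma adjusted p-values of 0.691 and 0.706. All 3 heterozygous libraries but 1 wild-type library expressed Xist. With Xist as a covariate the changes were 0.19 and 0.09, beside an all-gene median of 0.19. The wild-type library that expressed Xist, replicate 1, had the lowest wild-type values of both genes (34.9 and 3.75 TPM). The part of Xist status in these values was not tested. In homozygous hearts Col4a5 was at 57.3, 57.8 and 31.8 TPM and Col4a6 at 6.25, 6.02 and 2.56 TPM, with replicates 1 and 2 above all wild-type libraries and replicate 3 below them. The Col4a5 change against wild type was 0.28 ± 0.21 (SE) with a limma adjusted p of 0.392, and 0.56 with a limma adjusted p of 0.0486 without homozygous replicate 3. Without that library 1.81% of all tested genes were called. Col4a1 (203, 259 and 319 TPM in the wild-type replicates, 285, 255 and 339.7 TPM in heterozygous, 299, 336 and 176 TPM in the homozygous replicates) and Col4a2 (120.5, 156 and 199 TPM, 177, 165 and 221 TPM, 173, 196 and 112 TPM) moved together across libraries and did not separate the genotypes.

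Among the other genes, the type VI chains that form beaded filaments were the most abundant. Col6a2 was at 75.2, 77.4 and 97.8 TPM in the wild-type replicates, 91.9, 70.5 and 105 TPM in the heterozygous replicates and 90.0, 97.0 and 49.4 TPM in the homozygous replicates. Col6a1 was at 59.0, 59.0 and 74.2 TPM, at 77.8, 51.4 and 88.3 TPM and at 85.6, 90.8 and 47.8 TPM. Col6a3 was at 33.5, 40.2 and 41.8 TPM, at 36.8, 25.5 and 49.5 TPM and at 44.4, 48.2 and 19.2 TPM. For each of the 3 genes homozygous replicate 3 was the lowest library and the groups overlapped.

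Few collagen genes had groups that did not overlap, and the counts of lower genes were near the shares of all tested genes. The counts are too small to be read as a result about the family. In homozygous against wild-type hearts 2 of 33 collagen genes were higher in every homozygous library (22.3% of all tested genes) and 1 was lower (2.38%). In homozygous against heterozygous hearts 2 were higher (12.0%) and 1 lower (3.85%), and in heterozygous against wild-type hearts 2 were higher (12.8%) and 0 lower (1.03%). The higher pair was Col7a1 and Col25a1 in both homozygous comparisons and the lower gene was Col15a1. Of that pair, Col25a1 passed the filter only through the homozygous libraries. Those comparisons share the homozygous libraries.

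Col25a1, a transmembrane collagen, had the highest change against wild type. It was at 0.92, 0.69 and 1.01 TPM in the wild-type replicates, 1.05, 0.82 and 1.10 TPM in the heterozygous replicates and 1.78, 2.51 and 1.30 TPM in the homozygous replicates, with no overlap of homozygous with the others. The log2 change against wild type was 0.59 ± 0.25 (SE), with a limma adjusted p of 0.174. The gene passed the 1 TPM filter only through the homozygous libraries (means of 0.87, 0.99 and 1.86 TPM), so a higher homozygous level was a condition of its being tested. Col13a1, also transmembrane, was at 3.00, 2.58 and 1.87 TPM, at 3.31, 2.73 and 2.86 TPM and at 4.39, 4.57 and 2.99 TPM, where homozygous replicate 3 fell within the range of wild type. Its change was 0.51 ± 0.20 (SE), with a limma adjusted p of 0.163. Col7a1, the anchoring fibril collagen, was at 1.33, 1.18 and 1.46 TPM, at 1.62, 0.94 and 1.42 TPM and at 1.80, 1.63 and 1.67 TPM, a small step past the groups' edges with a log2 change of 0.22.

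The promoters of Col15a1, Col25a1 and Col7a1 are shown because they are the 3 tested collagen genes whose homozygous values lay outside both other groups. Each line is the 250 bases before the RefSeq start (GRCm38.p6), 5′ to 3′ on the gene's strand, with 3 short motifs in capitals, TATAAA (the TATA box), CCAAT (the CCAAT box) and GGGCGG (the GC box), found on either strand. Col15a1 is chr4:47207762-47208011, Col25a1 chr3:130180595-130180844 and Col7a1 chr9:108953336-108953585, all on the plus strand, and the Col15a1 window holds none of the 3 motifs. The RefSeq starts of Col15a1 and Col25a1 differ from the starts of the GENCODE genes. For Col15a1 the GENCODE gene starts close by, at chr4:47208161. For Col25a1 it starts far upstream, at chr3:130131501, so the window shown lies inside the annotated gene.

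Col15a1: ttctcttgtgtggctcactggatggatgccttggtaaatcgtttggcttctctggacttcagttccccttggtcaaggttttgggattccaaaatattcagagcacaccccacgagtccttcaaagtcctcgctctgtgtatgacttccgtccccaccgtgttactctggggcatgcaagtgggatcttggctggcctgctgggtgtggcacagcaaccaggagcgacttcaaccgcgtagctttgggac

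Col25a1: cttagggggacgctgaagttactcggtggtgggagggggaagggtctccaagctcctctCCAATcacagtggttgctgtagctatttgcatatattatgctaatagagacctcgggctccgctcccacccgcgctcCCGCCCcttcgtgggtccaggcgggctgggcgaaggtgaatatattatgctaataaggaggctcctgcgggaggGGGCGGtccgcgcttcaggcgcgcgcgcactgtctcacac

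Col7a1: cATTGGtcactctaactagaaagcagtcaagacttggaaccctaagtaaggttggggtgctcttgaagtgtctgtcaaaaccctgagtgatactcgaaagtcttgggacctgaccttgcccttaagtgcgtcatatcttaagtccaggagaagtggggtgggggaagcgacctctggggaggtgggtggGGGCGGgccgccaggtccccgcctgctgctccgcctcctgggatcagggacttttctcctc

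Windows were available for 35 of the 44 genes, in 38 windows. TATAAA was found in 5 of 38 (13.2%, against 12.4% of all 32851 windows), CCAAT in 13 (34.2% against 33.9%) and GGGCGG, the GC box, in 22 (57.9% against 32.7%). For CTCF, a pattern of CCA, then AG, then GGC, with 2 unspecified bases at each step, was searched first and matched 0 of 38 windows (2.07% of all windows). A shorter stretch of the CTCF consensus, AGGGGGC, was added after that count had been seen and matched 6 of 38 (15.8%, against 9.43% of all windows). In the 29 windows of tested collagen genes, TATAAA was in 3, CCAAT in 11, GGGCGG in 19, the first CTCF pattern in 0 and AGGGGGC in 6. The shares in windows of all tested genes were 6.5%, 35.0%, 57.0%, 2.39% and 14.7%, in that order. The CTCF patterns thus gave different counts, and a match of letters is not a bound site.

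Ratios between 2 collagen genes within a library are free of any factor that scales both, such as the library-wide shift. The ratio of Col15a1 to Col18a1 was 0.838, 0.911 and 1.04 in wild type, 0.713, 0.755 and 0.865 in heterozygous and 0.452, 0.400 and 0.591 in homozygous hearts. Every homozygous ratio was below every other, and the low replicate 3 did not stand apart in this direction. Col15a1 and Col18a1 had the lowest and the highest change of their class in these same libraries, so this ratio is not a separate observation. The ratio of Col6a1 to Col6a2, whose products join in the same type VI molecule, was 0.785, 0.762 and 0.759 in wild type, 0.847, 0.730 and 0.841 in heterozygous and 0.952, 0.936 and 0.966 in homozygous hearts, again without overlap of homozygous with the others. Col3a1 to Col1a1 was 1.55 ± 0.017 in wild type, 1.30 ± 0.023 in heterozygous and 1.39 ± 0.12 in homozygous hearts (SD, n = 3), and Col1a1 to Col1a2 was 1.14 ± 0.031, 1.26 ± 0.063 and 1.30 ± 0.053. Between homozygous and wild-type hearts Col3a1 to Col1a1 did not overlap, narrowly (1.28 to 1.52 against 1.53 to 1.56). Nor did Col1a1 to Col1a2 (1.25 to 1.35 against 1.11 to 1.17). Some other ratios overlapped between homozygous and wild-type hearts. Col4a1 to Col4a2 was 1.57 to 1.73 against 1.60 to 1.68, and Col4a5 to Col4a6 was 9.17 to 12.4 against 9.31 to 11.2. Col5a1 to Col5a2 was 1.23 to 1.42 against 1.30 to 1.51. Col3a1 to Col5a2, Col6a3 to Col6a1 and, narrowly, Col4a5 to Col4a1 did not overlap. No test of these ratios was made, and they are given as a description.

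**Figure D5:**
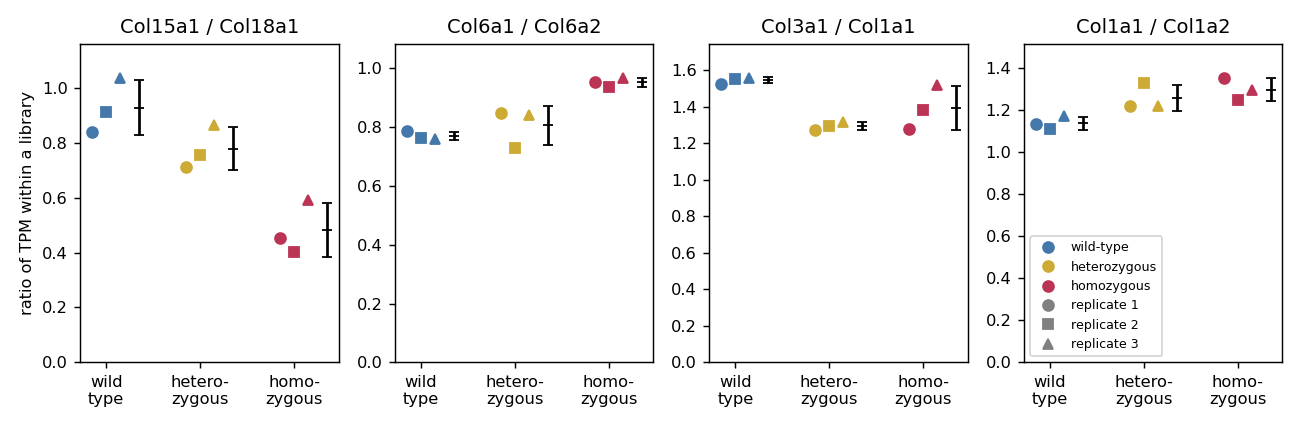
Ratio of the TPM of 2 collagen genes within each library (linear axis from 0), with 1 point per library and black bars for the mean ± SD (n = 3). Col15a1 to Col18a1 is 0.93 ± 0.10 in wild type and 0.48 ± 0.10 in homozygous hearts, and Col6a1 to Col6a2 is 0.77 ± 0.014 and 0.95 ± 0.015.

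Of the 105 pairs of the 15 collagen genes averaging 20 TPM or more, 44 (41.9%) had ratios that did not overlap between homozygous and wild-type hearts, where 23.7% of all gene pairs at that level did not overlap. In homozygous against heterozygous hearts it was 16 pairs (15.2%, against 18.7% of all pairs), and in heterozygous against wild-type hearts 17 pairs (16.2%, against 13.2%). Pairs share genes and libraries and are not independent. The share of all pairs was not matched for genes that move together across libraries, as many collagen genes did. In homozygous against wild-type hearts Col18a1 was the relatively higher gene in 10 of its 14 pairs, Col15a1 and Col6a3 were the relatively lower gene in 9 and Col6a2 in 7.

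The remaining tested genes, Col5a1, Col5a3, Col11a1, Col11a2, Col14a1, Col16a1, Col23a1, Col26a1, Col27a1, Col6a6, Col9a2 and Col9a3, had log2 changes against wild type of -0.12 (Col11a2) to 0.39 (Col26a1), none called. Against heterozygous hearts, Col9a1, a chain of the fibril-associated type IX of cartilage, had the highest change at 0.68 ± 0.36 (SE) with a limma adjusted p of 0.752, from 1.27, 0.81 and 1.80 TPM to 3.25, 3.76 and 1.35 TPM. Wild-type hearts had 3.20, 1.53 and 0.89 TPM, and all groups overlapped. Col8a2, a short-chain network collagen, changed by 0.41 there, from 0.93 to 2.0 TPM in heterozygous to 1.52 to 2.83 TPM in the homozygous replicates. In heterozygous against wild-type hearts Col12a1, fibril-associated, was highest at 0.37, from 8.94 to 10.1 TPM to 9.59 to 15.3 TPM, and Col5a1, a regulator of fibril diameter, was at 0.27.

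The 11 genes under the filter had means of 0.03 to 0.70 TPM, and were Col4a3, Col4a4, Col6a4, Col6a5, Col8a1, Col10a1, Col17a1, Col19a1, Col20a1, Col22a1 and Col28a1. Col6a5, a type VI chain, was at 0.09, 0.03 and 0.06 TPM in the wild-type replicates, 0.09, 0.01 and 0.03 TPM in the heterozygous replicates and 0.32, 0.32 and 0.91 TPM in the homozygous replicates, and was singled out after its values were seen. Its homozygous values were above all others, at a level under 1 TPM. The highest, 0.91 TPM, was in homozygous replicate 3, the library with 570.8 TPM of thymus markers. A part of other tissue in the Col6a5 values was not tested. In the other homozygous libraries Col6a5 was at 0.32 TPM. In the fit without a filter the Col6a5 log2 change was 0.49 against wild type and 0.52 against heterozygous hearts, with limma adjusted p-values of 0.190 and 0.648.

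Genes that make, cut or bind collagen also gave no call by limma. The 7 lists of collagen modification and folding, processing and crosslinking, degradation, receptors, other basement membrane components, fibril-associated components and TGF-beta signalling had 0 called genes in each comparison. In homozygous against wild-type hearts, where 25.0% of all tested genes had an unadjusted p under 0.05 and 0.336% were called, the genes with such a p were, in the order of the lists, 1 of 22, 2 of 12, 3 of 16, 2 of 8, 5 of 20, 2 of 21 and 4 of 17. The lowest adjusted p-values there came from Ctgf, a matricellular target of TGF-beta, and P4ha3, a prolyl hydroxylase subunit. Ctgf was at 668, 550.1 and 119.5 TPM in the wild-type replicates, 175, 98.5 and 104 TPM in the heterozygous replicates and 84.2, 40.0 and 58.3 TPM in the homozygous replicates. Its log2 change was -2.58 ± 0.55 (SE), with a limma adjusted p of 0.0839. P4ha3 was at 8.14, 7.90 and 10.8 TPM, at 13.4, 10.8 and 15.8 TPM and at 17.9, 14.8 and 14.99 TPM, with a change of 0.77 ± 0.17 and a limma adjusted p of 0.0878. For both genes the homozygous libraries lay outside the wild-type range. The largest and smallest log2 changes of the other lists against wild type were 0.41 for Tll1 and -0.44 for Tgm2 in processing and crosslinking, 1.01 for Mmp9 and -0.64 for Timp1 in degradation, and 0.68 for Ddr1 and -0.23 for Itga1 in receptors. They were 0.86 for Lamb3 and -0.40 for Ntn4 among basement membrane components and 0.64 for Fbn2 and -0.99 for Thbs1 among fibril-associated components.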

How the data were processed

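RNA was sequenced from embryonic hearts in 9 libraries of 3 genotypes. Per the labels and the study's methods, reads were trimmed (Trim Galore), mapped to mm10 (STAR) and turned into gene levels (RSEM) by the authors. The deposited values are TPM per gene symbol, while DESeq2, the authors' test, takes counts and was not applied. The annotation release and strand setting are not given in the sources used here, and TPM keeps no depth, so counting error is unknown.

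From these values, 26 date-like symbols were left out and log2(TPM + 1) was fitted with limma (v3.58.1, R v4.3.3; trend, 3 genotypes, 9 libraries) for the 13682 genes averaging 1 TPM or more. P-values were two-sided and Benjamini-Hochberg adjusted over all tested genes. The p-values measure only the spread between these libraries. The fit was tested on simulated data. Named genes were the 3 highest and 3 lowest changes per comparison, the 3 most abundant per class, and neighbouring pairs. Members and lists were chosen with earlier results of these data known. The second CTCF letter pattern was added after the first had shown no match in a collagen promoter, and both counts are given. Promoter sequences came from RefSeq (GRCm38.p6) and positions from GENCODE M21. Alternatives were other pseudocounts, filters, scalings, variance settings and left-out libraries.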

Additional observations from a re-analysis of the deposited data

How the results depend on the processing

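Of 647 alternatives run for 30 named collagen changes, 601 kept direction and side of the threshold, 8 passed it and 38 turned direction. No collagen gene was called in homozygous against heterozygous or heterozygous against wild-type hearts under any alternative. In homozygous against wild-type hearts 1 was called with median-ratio scaling (Col15a1, where 1.67% of all tested genes were called). With array weights 9 were called (all higher, where 37.0% of all tested genes were called). When a library was left out 0 to 1 were called, the 1 being Col4a5 without homozygous replicate 3 (1.81% of all tested genes). The causes were not tested.

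In homozygous against wild-type hearts the log2 change turned direction with median-ratio scaling for Col3a1 (-0.20), Col1a1 (-0.046), Col1a2 (-0.23), Col4a1 (-0.22), Col4a2 (-0.24) and Col6a1 (-0.067), and with quantile normalization for Col1a2 (-0.069), Col4a1 (-0.0096), Col4a2 (-0.081) and Col4a6 (-0.078). It turned with array weights for Col6a2 (0.16) and Col6a3 (0.16), and with the 6 libraries low in other-organ markers for Col2a1 (0.26), Col24a1 (0.14), Col6a2 (0.10) and Col6a3 (0.17). Those 6 libraries also turned Col6a2 against heterozygous hearts (0.12) and Col9a1 in heterozygous against wild-type hearts (0.042).

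Leaving out 1 library in turn moved the homozygous against wild-type change from -0.60 to 0.024 for Col24a1, -0.16 to 0.43 for Col3a1, -0.047 to 0.64 for Col1a1, -0.23 to 0.45 for Col1a2, -0.16 to 0.31 for Col4a1, -0.18 to 0.24 for Col4a2, -0.31 to 0.17 for Col6a2 and -0.38 to 0.26 for Col6a3. Without homozygous replicate 3 the change against wild type was also over 1.5 times as large for Col18a1 (0.67), Col5a2 (0.65), Col9a1 (0.73), Col4a5 (0.56), Col4a6 (0.56) and Col6a1 (0.46). Leaving out 1 library moved Col6a2 from -0.39 to 0.086 against heterozygous hearts, and Col9a1 from -0.53 to 0.046 and Col24a1 from -0.53 to 0.047 in heterozygous against wild-type hearts.

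The labels do not say whether replicate numbers pair the libraries. Deviations of same-numbered libraries correlated at -0.03 to 0.36 and of different-numbered ones at -0.31 to 0.12, and as not every same-numbered pair passed 0.1, the numbers were not treated as a pairing. With the replicate block 0 collagen genes were called in each comparison, and 17 of all genes in homozygous against wild-type hearts in place of 46. Counting depth is unknown, so the 3 libraries per group set the precision.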
